A study of Saccharomyces cerevisiae with 36 samples.

Results

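The truncated ZCON designs are shortened forms of designed protein heterodimers, paired with other proteins in yeast by a 2-hybrid selection for growth, with sequencing as readout. They were found by name, as chains with ZCON in the name and T or cutT followed by a digit before the final A or B. This gave 22 chains of 337 proteins in the DHD pool, and the same 22 of 122 proteins in a smaller DHD subset pool. The 22 chains form 11 designs of 4 parents. ZCON_152 had the forms T2 and T4, ZCON_155 the forms cutT2, cutT4 and cutT5, and ZCON_2_CC_resurf and ZCON_VR_2 each the forms cutT2, cutT4 and cutT6. The 8 full-length chains of these parents were in both pools. The number after T is called the truncation number here. What it counts, and which end of the chain was shortened, is not stated in the sources.

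A designed heterodimer is a pair of chains, A and B, built to bind each other rather than themselves. Such designs are often bundles of helices from both chains, held by a buried core between them. Shortening a chain can remove part of the surface that the partner packs against. In a yeast 2-hybrid assay each chain is fused to part of a transcription factor, and a pair that binds switches on a reporter gene. Here the reporter was HIS3, which encodes an enzyme of histidine synthesis, so cells with an interacting pair grow without histidine.

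Of the 36 libraries of the series 6 were used. The DHD pool had 2 biological replicates, each with a library before selection (medium with histidine, without tryptophan) and one after growth without histidine. The subset pool had 1 library of each kind and thus no replicate check. Its selected library is titled His+- and described as His-, and was taken as selected from the description. The selective medium held 3-AT, which competes for the HIS3 enzyme, at 1 mM in the sample descriptions and at 3 mM in the growth protocol. All libraries came from 1 MATa strain with HIS3 at the leu2 locus (leu2::pGAL6z-HIS3) in a his3-delta background, and its other labelled alleles were trp1, ura3-52, pep4::BleoMX, can1, GAL, prbd1.6R, leu2-delta200 and AGA1::GAL1-AGA1::URA3.

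The deposited counts form square matrices, and each cell holds the reads of a row protein with a column protein. The sources do not say which axis carried the DNA-binding fusion. Every pair of different chains has a cell for each orientation and is written as row with column. The libraries before selection held 33394129 and 4057624 reads in replicates 1 and 2 and 21994913 in the subset pool, with medians of 260, 31 and 435 reads per pair that held a truncated chain. After selection these medians were 34, 2 and 15. Replicate 2 was thus the shallowest set, and its low values often rest on 0 to 3 reads after selection. No molecular identifiers mark the PCR reads, and intervals therefore cover counting error only.

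Values below are log2 changes. Each is the log2 ratio of reads after to reads before selection, with 1 read added and divided by library totals, less the median of all pairs of that library set. Pairs with fewer than 10 reads before selection have no value. A value of 0 is thus the middle of the pool. The values of 95% of all pairs lay under 3.68, 3.89 and 4.20 in replicate 1, replicate 2 and the subset pool. A value of 4 or more is called high here, a threshold chosen with the values known.

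Chains were identified by 20-base barcodes, each unlike every other barcode of the pool at 7 or more positions for all 30 chains. The barcodes of the 2 parents on which the results turn are shown, since their values are counts of these sequences in pairs. No letters are capitalised, as a barcode carries no motif. For ZCON_152 the barcodes, as the deposited maps write them from left to right, were as follows.
ZCON_152_A: gcaagacagaaatgaagcgc
ZCON_152_B: cccccgacgcctgctacatg
ZCON_152_T2_A: agtcccgtccaatgagaagc
ZCON_152_T2_B: gtccttgagtctgcgcgtta
ZCON_152_T4_A: ggtagcctagacgcccccgg
ZCON_152_T4_B: cttttgggttttttagattc

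For ZCON_VR_2 they were the following.
ZCON_VR_2_A: ctgtcggtggcaagtgcaag
ZCON_VR_2_B: ctaaagcatagtttctcgaa
ZCON_VR_2_cutT2_A: tggagccctatgcccgcccg
ZCON_VR_2_cutT2_B: gttgcacgttcaagaggctc
ZCON_VR_2_cutT4_A: tctgctacgtgctggtgtca
ZCON_VR_2_cutT4_B: agtactcaagctccgcgttg
ZCON_VR_2_cutT6_A: taaaaattaacggtgagatg
ZCON_VR_2_cutT6_B: aaggcggaacttgtcgtgcg

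Truncated A and B chains of 1 design met each other in 22 ordered pairs. The T2 forms of ZCON_152 and ZCON_VR_2 were high with their own partner in most libraries, and all forms with a higher truncation number lay near or below the middle of the pool, with 1 exception in 1 library. Over the 4 T2 designs 9 of 22 measured values were high. Among all pairs 4.64%, 4.65% and 5.26% were high in replicate 1, replicate 2 and the subset pool. Over the 7 designs with T4, T5 or T6 the count was 1 of 29, and the other values ran from -4.00 to 0.54. That high value was ZCON_2_CC_resurf_cutT6_B with ZCON_2_CC_resurf_cutT6_A in replicate 1.

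Among truncated designs with their own partners ZCON_VR_2_cutT2 held the highest value of each of the 3 library sets. With A on the row, reads went from 121 to 10888 in replicate 1, from 39 to 83 in replicate 2 and from 362 to 51785 in the subset pool. The log2 changes were 9.20, 3.66 and 10.99, with an exact binomial 95% interval of 10.84 to 11.15 in the subset pool. With B on the row they were 7.77, 8.53 and 9.97 (interval 9.81 to 10.16). All 6 values were above 3, and the mean over the 2 replicates was 6.43 ± 3.92 (SD, n = 2) with A on the row and 8.15 ± 0.54 with B on the row. Among all partners of ZCON_VR_2_cutT2_A as row protein the own partner had rank 1 in replicate 1 and in the subset pool and rank 26 in replicate 2. For ZCON_VR_2_cutT2_B as row protein the ranks were 3, 2 and 1 in replicate 1, replicate 2 and the subset pool.

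The full-length ZCON_VR_2 chains were at 6.14, 9.38 and 3.58 with A on the row (replicate 1, replicate 2 and subset pool) and at 2.62, 8.39 and 4.35 with B on the row. Compared with them, cutT2 was higher by 3.06 and 7.41 in replicate 1 and the subset pool with A on the row, and was at -5.72 relative to full length in replicate 2. In the other orientation these differences were 5.15, 0.14 and 5.62 in replicate 1, replicate 2 and the subset pool. The order of the forms thus differed between libraries with A on the row. Full-length ZCON_VR_2_A was broadly high in replicate 2, where its median over all partners was 2.24 as row and 2.71 as column protein, against 0.85 and -1.45 in replicate 1. The part of this in the replicate 2 values was not tested.

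ZCON_152_T2 was high with its own partner in 2 of the 3 library sets. With A on the row reads went from 307 to 24612 in replicate 1, from 25 to 25 in replicate 2 and from 180 to 7389 in the subset pool, which gave log2 changes of 9.04, 2.58 and 9.18. With B on the row reads went from 345 to 13487, from 45 to 5 and from 360 to 18391, or 8.01, -0.35 and 9.50. Replicate 2 stood below the other sets in both orientations. The mean over the 2 replicates was 5.81 ± 4.57 (SD, n = 2) and 3.83 ± 5.91. Full-length ZCON_152 with A on the row was at 5.76, 4.37 and 4.86, so T2 was above it by 3.28 in replicate 1 and by 4.32 in the subset pool and at -1.79 relative to it in replicate 2. With B on the row full length was at -0.18 in replicate 1 and 5.94 in the subset pool, and in replicate 2 it had 1 read before selection and no value.

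ZCON_152_T4 was low in every measured value. With A on the row it was at -2.41, -0.87 and -3.66 in replicate 1, replicate 2 and the subset pool, where reads went from 104 to 2, from 10 to 0 and from 896 to 4. In the other orientation only replicate 1 reached 10 reads before selection, at -0.79. T4 with A on the row lay below full length by 8 or more log2 units in replicate 1 and the subset pool (differences of -8.17 and -8.52) and at -5.24 relative to it in replicate 2. These 3 differences mix replicates of the DHD pool with the subset pool, which has no replicate. With B on the row the difference of T4 from full length was -0.61 in replicate 1. Full-length ZCON_152_A as row protein was broadly high in replicate 2, with a median of 3.20 over all partners. Its full-length pair had rank 96 of 308 in the row and 7 of 218 in the column there. The part of this in the replicate 2 difference was not tested.

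For ZCON_VR_2 the steps to cutT4 and cutT6 gave values near 0 in replicate 1 and below it in replicate 2. ZCON_VR_2_cutT4 was at -0.57 and -1.14 with A on the row and at 0.52 and -2.76 with B on the row (replicates 1 and 2). ZCON_VR_2_cutT6 was at 0.54 and -1.74, and at 0.33 and -2.42. All 8 values were below the full-length value of the same orientation and replicate. Differences from full length ran from -2.10 to -6.71 in replicate 1 and from -10.52 to -11.15 in replicate 2. None of these 4 pairs reached 10 reads before selection in the subset pool.

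ZCON_155 gave no high value with its own partner in any truncated form, cutT2 included. Full-length A_ZCON_155 with B_ZCON_155 was at 6.85, 3.91 and 6.52 in replicate 1, replicate 2 and the subset pool. The other orientation was at -0.93, -2.39 and 3.72, so every set gave the full-length design a lower value with B on the row. ZCON_155_cutT2 with A on the row was at 1.43 and -0.42 in replicates 1 and 2, cutT4 at -1.17 and -4.00, and cutT5 at 0.26 and -3.16. The other orientation gave replicate values for all 3 forms between -1.71 and 0.45. The subset pool gave -3.98 for cutT2 and 0.13 for cutT4 with B on the row, and reads there went from 223 to 0 and from 12 to 0. With A on the row the differences of the truncated forms from full length ran from -5.42 to -8.02 in replicate 1 and from -4.33 to -7.91 in replicate 2. B_ZCON_155 as column protein had a median of 2.15 over all partners in replicate 2. The full-length pair had rank 33 of 200 in that column and 4 of 325 in its row. Column medians of the cutT2, cutT4 and cutT5 B chains there were 1.13, -1.87 and -1.94. The part of this in the replicate 2 differences was not tested. Among other forms of this parent ZCON_155_LL, whose name carries LL in place of a truncation number, was at 6.98 ± 0.99 (SD, n = 2) with A on the row, and ZCON_155_resurf at 1.91 ± 1.52. With B on the row they were at 2.54 ± 4.42 and 0.95 ± 0.08.

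ZCON_2_CC_resurf gave no high value in its full-length form either. Full length was at -0.33, -3.09 and -1.0 with A on the row and at -1.56, -1.42 and 0.30 with B on the row (replicate 1, replicate 2 and subset pool). The cutT2 form was at -1.94, -2.08 and -0.21, and at 0.59, -0.77 and -4.20. The cutT4 form was at 0.04 and -2.74, and at 0.11 and -2.91. The cutT6 form with A on the row was at -0.86 and -1.58. With B on the row cutT6 was at 8.76 in replicate 1, where reads went from 222 to 14624, and at -1.0 in replicate 2, where they went from 23 to 1. That high value has no second library behind it, since the subset pool held 1 read of this pair before selection.

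Across all 22 ordered pairs of truncated partners the median log2 change was 0.29 in replicate 1 (22 measured), -1.36 in replicate 2 (20 measured) and 0.13 in the subset pool (9 measured). The medians of all 14344 pairs with a truncated chain were -0.15, -0.96 and -0.44, and those of the whole pools are 0 by construction. The 3 sets are not equally informative. Over the 20 pairs of truncated partners measured in both replicates their values correlated with a Pearson r of 0.70, and over 9 pairs replicate 1 and the subset pool gave 0.95. Over all 12391 measured pairs with a truncated chain r between replicates was 0.19, and over all 90890 pairs of the pool it was 0.25. These points share chains and libraries and are given as a description.

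In a pair of 1 truncated and 1 full-length chain only 1 side is shortened. For ZCON_VR_2 and ZCON_152 a T2 chain with the opposite full-length chain was above the full-length pair in most comparisons, 9 of 12 for ZCON_VR_2 and 9 of 10 for ZCON_152, within 1 orientation and library set. The 3 exceptions of ZCON_VR_2 all came from replicate 2. For ZCON_155 it was so in 1 of 11 comparisons and for ZCON_2_CC_resurf in 5 of 12. Over the 6 ordered pairs of ZCON_VR_2 in which A and B were full length or cutT2 and at least 1 was cutT2, 17 of 18 values were high, with a median of 8.43. ZCON_VR_2_B with ZCON_VR_2_cutT2_A was the highest of those with a full-length chain by the lower replicate, at 8.92, 6.70 and 8.54 in replicate 1, replicate 2 and the subset pool. ZCON_VR_2_cutT2_A with ZCON_VR_2_B followed at 7.34, 5.78 and 9.20, and ZCON_VR_2_cutT2_B with ZCON_VR_2_A at 5.39, 8.70 and 4.81. ZCON_152_A with ZCON_152_T2_B was at 9.07, 5.27 and 8.03. In the 6 such ordered pairs of ZCON_152, 13 of 17 values were high, and the 4 that were not high all came from replicate 2, with the lowest at -1.15. In that replicate ZCON_152_A as row protein was high with 113 partners and had a median of 3.20, against 16 partners and 0.06 in replicate 1.

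The values of the cutT4 chains of ZCON_VR_2 were unlike for A and B. ZCON_VR_2_cutT4_B met the full-length and cutT2 A chains with high values in some libraries, and ZCON_VR_2_cutT4_A met the full-length and cutT2 B chains with none. Full-length ZCON_VR_2_A with ZCON_VR_2_cutT4_B went from 406 to 23620 reads in replicate 1, from 95 to 8 in replicate 2 and from 3012 to 235208 in the subset pool, or 8.58, -0.83 and 10.12. ZCON_VR_2_cutT2_A with ZCON_VR_2_cutT4_B was at 7.13, -0.85 and 8.61. With the axes exchanged, ZCON_VR_2_cutT4_B with ZCON_VR_2_A was at 2.65, 7.09 and -0.63, and with ZCON_VR_2_cutT2_A at 6.23, -0.83 and 1.52. Thus 6 of these 12 values were high, 1 of them in replicate 2, and no orientation was high in all 3 sets. As row protein full-length ZCON_VR_2_A was high with 38 of 333 partners in replicate 1 and 19 of 115 in the subset pool. As column protein it was high with 82 of 298 in replicate 2. For ZCON_VR_2_B these counts were 23 of 337, 11 of 120 and 15 of 323. The part of this in the unlike values of A and B was not tested. For ZCON_VR_2_cutT4_A and cutT6_A with full-length or cutT2 B chains 0 of 23 values were high, with a range of -3.99 to 1.59. ZCON_VR_2_cutT6_B was high in 1 of 21 values with full-length and truncated A chains. That value was 5.82 as row protein with ZCON_VR_2_cutT2_A in the subset pool, from 34 to 138 reads, against 0.69 and -1.78 in the replicates. ZCON_VR_2_cutT6_A with ZCON_VR_2_cutT4_B was at 5.95 in replicate 1 and -2.12 in replicate 2.

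The resurf form of ZCON_VR_2 gave high values with truncated chains of either side. ZCON_VR_2_cutT2_A with ZCON_VR_2_resurf_B was at 7.35, 8.53 and 8.32 in replicate 1, replicate 2 and the subset pool, and at 8.92, 1.23 and 9.26 exchanged. Beyond cutT2, ordered pairs with the resurf form were high in at most 1 library, and none was with ZCON_VR_2_cutT6_A or with the resurf chain on the row. ZCON_VR_2_cutT4_A with ZCON_VR_2_resurf_B was at 6.41 in the subset pool (606 to 3631 reads) and at -0.36 and 1.49 in the replicates. ZCON_VR_2_cutT4_B with ZCON_VR_2_resurf_A was at 7.49, 0.78 and -1.68. ZCON_VR_2_cutT6_B with ZCON_VR_2_resurf_A was at 7.11 in replicate 1 and 3.24 in the subset pool, with no value in replicate 2.

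In the other parents chains beyond T2 were not high with opposite full-length or truncated chains of their parent, apart from the single cutT6 value above. With the opposite LL and resurf chains of ZCON_155 the high values were both in replicate 1, where ZCON_155_LL_A with ZCON_155_cutT4_B was at 7.46 (-4.43 in replicate 2 and 1.83 in the subset pool) and ZCON_155_resurf_A with ZCON_155_cutT4_B at 4.37 (-2.87 and -2.06). For ZCON_152, 0 of 23 values with a T4 chain were high, and the highest was 3.25, for ZCON_152_T4_B with ZCON_152_A in the subset pool with 11 reads before and 7 after selection. For ZCON_155, 0 of 69 values of opposite chains, truncated with truncated or full-length, were high. The highest of these was 2.60, for ZCON_155_cutT2_A with B_ZCON_155 in the subset pool, where the replicates gave 0.25 and 0.47. For ZCON_2_CC_resurf 1 of 77 such values was high and the median was -1.27. Of the 44 pairs of a truncated with a full-length chain, 10 were above 0 in both replicates, and 42 were measured in both. Over the whole pool 26069 of 90890 pairs measured in both replicates were above 0 in both, and 1977 of 12391 with a truncated chain. The lowest 3 of these 10 by the lower replicate were A_ZCON_155 with ZCON_155_cutT2_B (0.53 and 0.04), ZCON_152_T4_A with ZCON_152_B (0.18 and 1.69) and ZCON_155_cutT2_A with B_ZCON_155. Of the 40 pairs of different truncation numbers of 1 parent, 0 were above 0 in both replicates, and 37 were measured in both.

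Counting pairs high in both replicates, 39 of 12391 measured pairs with a truncated chain were high, against 1.0% of all measured pairs of the pool (910 of 90890). Among the 42 measured pairs with a full-length chain of the same parent 5 were high, among the 20 measured pairs of truncated partners 1 was, and among the 12125 measured off-target pairs 32 were. In all 3 library sets 14 of 3230 pairs with a truncated chain were high, against 1.16% of all pairs measured in the 3 sets. Of these 14, 5 joined a truncated to a full-length chain of the same parent, 1 joined truncated partners, 1 joined a truncated chain to another form of its parent, and 7 were off-target.

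Tested across the whole pool, 0 of 13916 pairs with a truncated chain were enriched by selection in edgeR's quasi-likelihood test at an adjusted p under 0.05, and 0.0% of all 110004 tested pairs were. At an unadjusted p under 0.05, 161 pairs with a truncated chain lay higher and 754 lower, against 3849 and 3495 pairs of the whole pool. With library size in place of TMM these counts were 10 and 8464, against 334 and 48354, and with the replicate block 39 and 719, against 1025 and 3219. The 22 pairs of truncated partners had 0 higher and 2 lower by that measure. For ZCON_VR_2_cutT2 with B on the row the fitted log2 change was 7.82 ± 4.32 (SE, n = 2; edgeR adjusted p = 0.665). DESeq2, the tool named in the submitters' processing notes, called 523 of the 2804 pairs with a truncated chain to which it gave an adjusted p enriched, and 29.7% of such pairs of the whole pool. Among truncated partners it gave 7 of 22 pairs an adjusted p and called 5 enriched. These were both orientations of ZCON_VR_2_cutT2 (adjusted p of 7.57e-04 with A on the row and 7e-07 with B on the row), both of ZCON_152_T2 (8.29e-04 and 0.00869) and the cutT6 pair of ZCON_2_CC_resurf that was high in 1 replicate (0.00599). The tools thus differed on every enriched pair. Without the replicate 2 library after selection, edgeR called 558 of 13999 pairs with a truncated chain enriched, against 6.23% of all pairs. Of these 558, 5 were of truncated partners. The median fitted log2 change was -0.38 for pairs with a truncated chain and -0.14 for all pairs. Without the replicate 1 library after selection it called 465 of 13988 enriched, 2 of them of truncated partners, against 7.6% of all pairs. These medians were then -2.04 and -0.89. Each of these fits rests on 1 library after selection.

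The difference between truncated and full-length chains with the same partner was tested for 14261 pairs, as an interaction of form and selection in edgeR. At an adjusted p under 0.05, 0 differences passed (0.0%), and at an unadjusted p under 0.05 there were 138 with a higher and 829 with a lower value for the truncated chain. For both chains truncated against both full length, ZCON_155_cutT4 with A on the row had the lowest p, with a difference of -8.41 ± 2.73 (SE; edgeR adjusted p = 0.735). ZCON_152_T4 with A on the row gave -8.75 ± 3.36. With B on the row the differences of these designs were 1.36 ± 1.84 for ZCON_155_cutT4 and -0.91 ± 1.96 for ZCON_152_T4. ZCON_VR_2_cutT4 gave -9.15 ± 3.80 with A on the row and -8.42 ± 3.55 with B on the row. ZCON_VR_2_cutT6 gave -8.12 ± 3.81 and -7.71 ± 3.55. The largest difference went the other way, at 10.07 ± 3.94 for ZCON_2_CC_resurf_cutT6 with B on the row, the pair high in replicate 1 alone. ZCON_152_T2 with B on the row gave 7.15 ± 3.68. For cutT2 of ZCON_VR_2 the differences were -0.77 ± 3.38 and 0.82 ± 3.33, well inside their error. Shortening 1 chain gave ZCON_VR_2_cutT4_A with ZCON_VR_2_B a difference of -8.38 ± 3.74, and ZCON_VR_2_cutT4_B with ZCON_VR_2_A one of -1.25 ± 3.23, both with the truncated chain on the row. The difference between these sides was not tested.

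Over all partners, the fitted difference from the full-length chain was negative for most partners of the truncated chains of ZCON_VR_2_A. The median was -2.58 for ZCON_VR_2_cutT4_A (lower with 603 of 662 pairs), -2.61 for ZCON_VR_2_cutT6_A (591 of 655) and -1.41 for ZCON_VR_2_cutT2_A (565 of 661), beside broad values of the full-length chain in replicate 2. It was -1.83 and -1.93 for ZCON_152_T2_A and ZCON_152_T4_A, whose full-length chain was also broadly high in that replicate. ZCON_152_T2_B went the other way, with a median of 1.12 and a lower value in 141 of 659 pairs. Chains of ZCON_2_CC_resurf had medians between -0.19 and 0.16. Each comparison of this kind shares its full-length chain with the other truncations of that chain.

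With off-target partners, which are all proteins outside the parent's family, the truncated chains lay below the middle of the pool. The 14036 off-target pairs had medians of -0.15, -0.94 and -0.45 in replicate 1, replicate 2 and the subset pool. Of the truncated chains ZCON_152_T2_B was in the most of the 32 off-target pairs high in both replicates. It was in 18 of them, 11 as row and 7 as column protein. These were 11 of 300 and 7 of 199 measured off-target pairs (3.67% and 3.52%). Over all measured pairs of the pool the share was 1.0%. The other chains in them were ZCON_VR_2_cutT2_B with 4 pairs, ZCON_VR_2_cutT2_A and ZCON_155_cutT5_B with 3 each, ZCON_VR_2_cutT4_B with 2, and ZCON_152_T4_B and ZCON_155_cutT4_B with 1 each. The remaining 15 chains had 0. No chain of ZCON_2_CC_resurf was among them, and ZCON_152_T2_A, the designed partner of ZCON_152_T2_B, was not either.

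The off-target partners of ZCON_152_T2_B were other designed chains. A_ZCON_162 with ZCON_152_T2_B was at 8.02, 8.37 and 9.27 in replicate 1, replicate 2 and the subset pool, and at 4.68, 3.21 and 4.83 with the axes exchanged. ZCON_37_LL_A with ZCON_152_T2_B was at 7.57, 9.87 and 8.85, and at 7.19, 5.71 and 6.87 exchanged. The first orientation of each pair was listed for its high replicate values, so no comparison with the own partner of ZCON_152_T2_B is drawn. Exchanged, ZCON_37_LL_A was high in every library set, and A_ZCON_162 was not high in replicate 2. As row protein with A_HT_DHD_25, B_HT_DHD_82, A_HT_DHD_75, B_HT_DHD_83 and B_HT_DHD_55, chains absent from the subset pool, it had values of 6.57 to 8.02 in replicate 1 and 6.85 to 9.93 in replicate 2. A_HT_DHD_75 was high in both replicates with the axes exchanged too (8.46 and 6.50). Exchanged, A_HT_DHD_25 was at 9.61 and 1.74 in replicates 1 and 2, and B_HT_DHD_55 at 8.5 and 3.91. B_HT_DHD_82 and B_HT_DHD_83 were at 8.48 and 7.72 in replicate 1 and had no value in replicate 2.

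The other pairs among the 10 highest by the lower replicate held truncated chains of ZCON_VR_2 and ZCON_155. ZCON_VR_2_cutT2_A with DHDr2_19_B was at 7.99, 8.94 and 2.19, and at 8.58, 2.25 and 9.05 exchanged. ZCON_155_cutT4_B with A_HT_DHD_46 was at 7.66 and 7.75 in the replicates, and at 1.43 and -2.75 exchanged, so it was high in 1 orientation. ZCON_2_CC_A with ZCON_VR_2_cutT2_A, both A chains, was at 8.03, 7.38 and 5.83, and at 1.65, 2.42 and 3.31 exchanged. In edgeR's test the unadjusted p of these 10 pairs lay between 0.0581 and 0.1078, and none passed after adjustment. DESeq2 called all 10 enriched, with adjusted p between 3.28e-07 and 1.12e-04. The 10 pairs were picked for high values in the same replicates, so these calls are no separate check. Among all off-target pairs DESeq2 gave 2712 an adjusted p and called 493 enriched. Over the whole pool it called 7961 of 26828 such pairs enriched (29.7%).

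Chains were ranked by the mean of their 2 replicate medians over all partners. ZCON_152_T2_B was highest as column protein, at 0.86, 2.17 and 1.42 in replicate 1, replicate 2 and the subset pool. ZCON_155_cutT2_B followed at 0.28, 1.13 and -0.75, and ZCON_VR_2_cutT2_A at 0.02, 0.36 and 0.54. As row proteins the highest were ZCON_155_cutT5_B at 0.04, 2.11 and 0.72, ZCON_152_T2_B at 0.26, 1.35 and 0.32, and ZCON_VR_2_cutT2_B at 0.06, 1.27 and 0.70. In replicate 1 alone ZCON_VR_2_cutT4_B was highest at 0.42. ZCON_155_cutT5_B as row protein was high with 50 of 307 partners in replicate 2, 9 of 332 in replicate 1 and 9 of 56 in the subset pool. The lowest medians as column protein belonged to ZCON_155_cutT4_A (-1.14, -1.39 and -2.04), ZCON_VR_2_cutT4_A and ZCON_155_cutT2_A. As row proteins the lowest were ZCON_2_CC_resurf_cutT2_A (-0.19, -1.22 and 0.01), ZCON_155_cutT4_A and ZCON_155_cutT2_A. In replicate 1 and the subset pool ZCON_155_cutT2_B was lowest as row protein, at -0.88 and -2.01. Those values were also the lowest row medians of the whole pools. They rest on 201 measured partners in replicate 1 and 25 in the subset pool. This chain had 9940 and 9250 reads as row protein before selection there, and 9940 was the fewest of any truncated chain in replicate 1. In replicate 2 the row medians of truncated chains reached from -1.22 to 2.11, and those of all 337 proteins from -2.18 to 3.55.

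Pairs of a chain with itself gave no value above 0 in both replicates, with 13 of 22 measured in both. By contrast, 26069 of 90890 measured pairs of the whole pool were above 0 in both, and 1977 of 12391 with a truncated chain. The highest value in any library was that of ZCON_152_T2_B with itself, at 4.05 in replicate 1 (30 to 77 reads) and 1.21 in the subset pool, and next came ZCON_VR_2_cutT2_A at 2.13 in replicate 2 and ZCON_VR_2_cutT4_A at 1.14 in replicate 1 (-3.35 in replicate 2). ZCON_2_CC_resurf_cutT6_B with itself went from 8 to 232 reads in replicate 1, under the minimum of 10 reads and thus without a value. Pairs of 2 A or 2 B chains of 1 family were measured 114 times in both replicates, and 0 were high in both. The highest by the lower replicate was ZCON_155_cutT5_B with ZCON_155_LL_B, at 4.37 and 3.78, and at 0.45 in the subset pool.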

How the data were processed

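The authors deposited read counts per ordered pair of proteins, 1 square matrix per library, and maps of proteins to barcodes (other values). Per the submitters' processing notes DESeq2 was used, and its version, the aligner and the barcode matching were not given in the sources used here. Counts were used as deposited, with empty cells taken as 0 and the suffix _swap dropped from names, since the maps give both spellings the same barcode.

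The DHD pool was fitted whole in R 4.3.3 with edgeR 4.0.16 (TMM, glmQLFit with robust estimation, glmQLFTest; pairs with at least 10 reads per library on average), with Benjamini-Hochberg adjusted p under 0.05. SE is the absolute log2 change over the square root of F. The common dispersion was 0.688. Truncated and full-length chains were compared by an interaction of form and selection. Both fits were tested on simulated data. Single values used Python 3.11.15, numpy 2.4.6, pandas 2.3.3 and scipy 1.17.1. DESeq2 1.42.0 was an alternative; others were library size without TMM, other filters, a replicate block, each library left out, other pseudocounts and read minimums, and no centring.

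Replicate numbers come from the labels and mark library sets, so they pair the libraries; deviations of same-numbered libraries from group means correlated with 0.329. With TMM the median of all pairs was -0.15, and with library size alone -2.53.

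Members and lists were chosen with earlier results of these data known. Named pairs were partners of every truncated and full-length design, truncated with full-length pairs above 0 in both replicates (highest and lowest 3), the 3 highest homodimers, the 10 highest off-target pairs by the lower replicate and the chains with the highest and lowest 3 medians per side. Single values within 1 family and the pairs high in 1 library were added after their values were seen. The proteins' amino acid sequences were not analysed here.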

Additional observations from a re-analysis of the deposited data

How the results depend on the processing

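In edgeR the count of enriched pairs stayed at 0 in the pool and among pairs with a truncated chain with library size in place of TMM, with no filter, with 50 reads per library and without either library before selection, and with the replicate block it was 0 too. The paired fit, with replicate as a block, changed no call, and the interaction of form and selection also gave 0. DESeq2 called 7961 pairs of the pool enriched, and 523 with a truncated chain. With libraries left out the counts ran from 0 to 8420 for the pool, from 0 to 558 for pairs with a truncated chain and from 0 to 1414 for the interaction. The high counts came without a library after selection: 8420, 465 and 1414 without replicate 1 after selection, and 6908, 558 and 1083 without replicate 2. There the lone library is assumed to vary like the others. The median of truncated partners was -0.94 over 20 pairs (mean of replicates), -3.61 without centring and from -1.36 to 0.29 with 1 replicate left out. The median difference from full length was -0.30, and from -1.79 to -0.08 with 1 replicate left out. The off-target median was -0.55, and -3.22 without centring. Other pseudocounts and read minimums moved these medians by less than the spread between replicates, with the difference from full length at 0.17 over 4 pairs at a minimum of 50 reads. Of pairs with a truncated chain 39 were high in both replicates at a threshold of 4. There were 72 at a threshold of 3 (1545 of 90890 over the pool), and 7 of 4014 with at least 50 reads before selection (168 of 22858). These settings were chosen after the data were seen. In replicate 2, 20 of the 22 pairs of truncated partners had at least 10 reads before selection. In the subset pool 9 had, although pairs with a truncated chain had a higher median there (435 reads, against 31 in replicate 2).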
